A study of Mus musculus with 6 samples.

Results

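The expression of 10 genes for collagen processing and crosslinking enzymes was followed in the mouse fibroblast line NOR-10, which derives from skeletal muscle, under D-galactose (D-gal), a sugar used to induce cellular senescence. The genes were chosen by name: the lysyl oxidases Lox, Loxl1 and Loxl2, the lysyl hydroxylases Plod1, Plod2 and Plod3, the prolyl 4-hydroxylase subunits P4ha1 and P4ha2, the collagen chaperone Serpinh1 and the procollagen proteinase Bmp1. Each of the 10 had 1 row among the 34745 genes of the deposited table, and all 10 were among the 13407 genes that passed the filter on low counts and were tested. RNA sequencing compared 3 control replicates, given PBS, with 3 replicates given D-gal at 20 mg/mL for 3 days. Dose and duration are those of the culture protocol, not of the labels. Both groups are the same unmodified cell line, so no animal, donor or sorted population stands behind the replicates. The labels do not say whether the replicates were separate cultures, and the p-values therefore measure the spread between these libraries, which may be technical.

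Library totals lay between 16876087 and 20830349 counts among controls and between 13759108 and 15157064 under D-gal. All 9 fibroblast markers examined had at least 10 counts in every library, and their summed normalized count was 127850 to 131117 among controls and 83919 to 89365 under D-gal. Type I collagen made up the greatest part of that sum, and its chains fell (log2 fold change -0.71 for Col1a1 and -0.97 for Col1a2), as did Col3a1, Dcn, Thy1 and Vim. Pdgfrb rose (0.19), and Pdgfra (-0.08) and S100a4 (-0.04) did not pass. Of 7 myogenic markers, Pax7, Myf5 and Myod1 were at 0 in every library, and the sum of the 7 was 52.3 to 60.4 among controls and 31.4 to 33.9 under D-gal. The summed markers of endothelial cells (51.8 to 90.6 over all libraries), adipocytes (16.2 to 33.7), epithelial cells (28.4 to 141) and pericytes or smooth muscle (127 to 217) were low beside those of fibroblasts, as were those of macrophages and blood (306 to 677). Adipoq and Epcam were at 0 throughout. The fibroblast markers thus did not move together, and their part in the differences described here was not tested.

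Collagen chains are modified while they enter the endoplasmic reticulum. Prolyl 4-hydroxylases add the hydroxyl groups that keep the triple helix stable at body temperature, lysyl hydroxylases modify lysines that later carry sugars or crosslinks, and the chaperone HSP47, the product of Serpinh1, binds the folded helix on its way to the Golgi. After secretion, proteinases such as BMP1 cut off the propeptides so that fibrils can form, and the copper enzymes of the lysyl oxidase family oxidize lysines so that neighbouring molecules become crosslinked. In muscle, the amount and crosslinking of collagen set much of the stiffness of the connective tissue, and fibroblasts are its main source.

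Of the 10 genes, 3 were higher in the D-gal group (Plod2, Plod3 and P4ha1) and 4 were lower (Lox, Loxl1, P4ha2 and Bmp1) at an adjusted p-value under 0.05 by the quasi-likelihood test of edgeR, adjusted after Benjamini and Hochberg across the 13407 genes. Plod1, Loxl2 and Serpinh1 did not pass. Among all genes tested, 34.8% passed the same threshold, 16.9% higher and 17.8% lower. Without adjustment, 8 of the 10 genes had a p under 0.05 in edgeR's test, as did 5984 of the 13407 genes tested. When a log2 fold change of 1 or more in size was required beside the adjusted p, 0 of the 10 genes passed. The rule with both thresholds called 4.21% of all genes tested, 2.37% higher and 1.83% lower. The log2 fold changes of the 10 genes ran from -0.90 for Lox to 0.53 for Plod2, with a median of -0.15, against a median of 0.0036 across the genes tested. For 8 of the 10 genes the libraries of the groups did not overlap, 3 with every D-gal library above every control library and 5 with every D-gal library below, against 49.1% of all genes tested without overlap in either direction. These are differences in transcript level in whole cultures, in which fewer cells of a kind and less RNA per cell cannot be told apart.

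**Figure D1:**
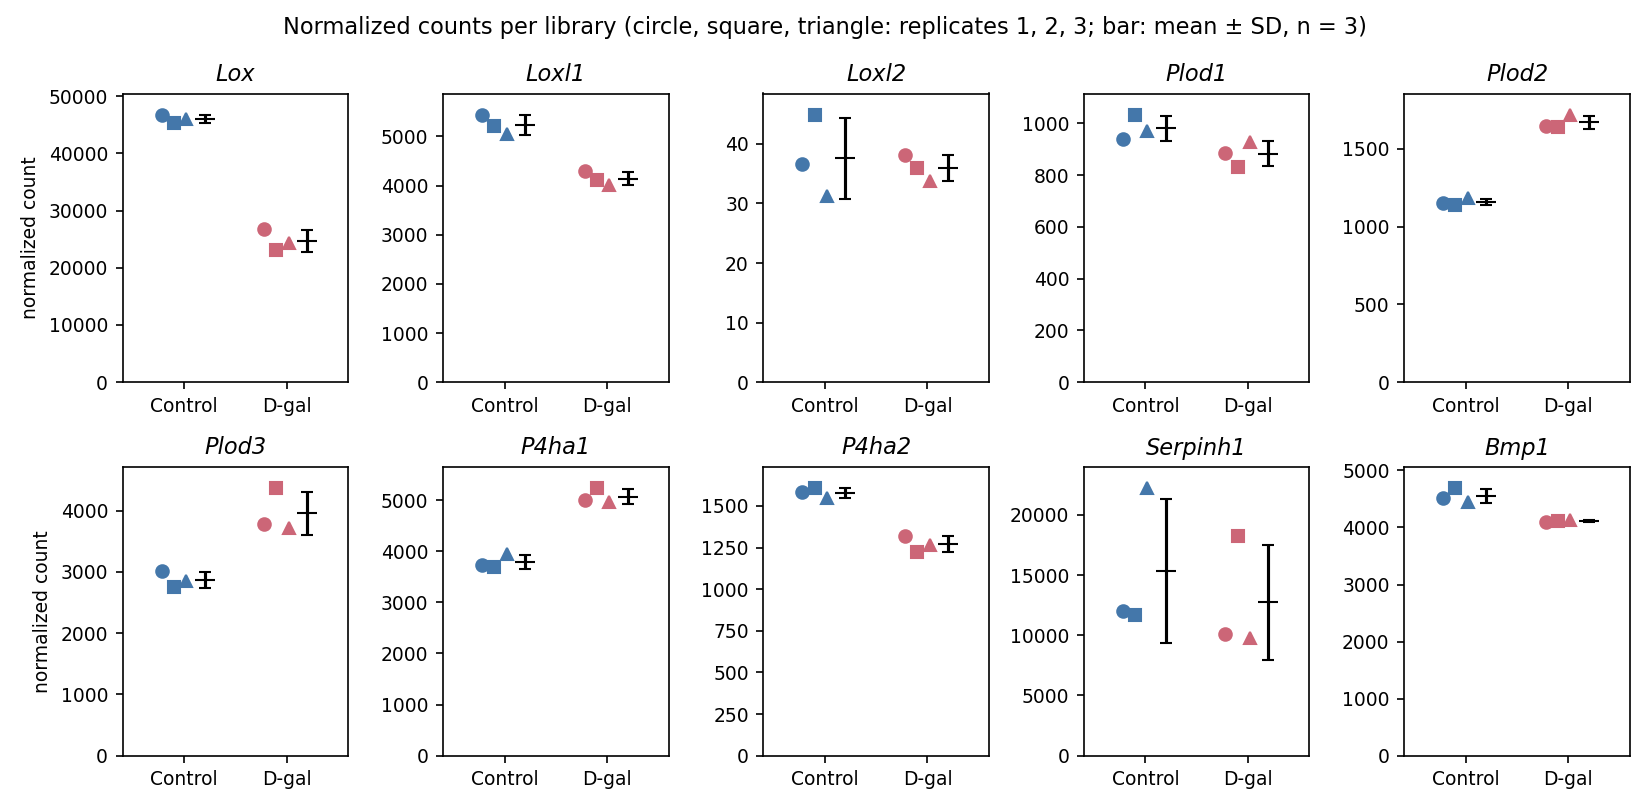
Normalized counts of the 10 genes (vertical axes, each starting at 0) in each control and D-gal library, with the replicates as circle, square and triangle and a bar for the mean ± SD (n = 3). The D-gal libraries lay above all control libraries for Plod2, Plod3 and P4ha1, below them for Lox, Loxl1, Plod1, P4ha2 and Bmp1, and among them for Loxl2 and Serpinh1.

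The catalytic subunits of prolyl 4-hydroxylase moved in opposite directions. P4ha1 encodes the alpha subunit that most cells use most, and it lies at chr10:59323296-59373304 on the plus strand (GRCm38). Its normalized count was 3740.2, 3683 and 3951 in control replicates 1 to 3, and 4994, 5231 and 4964 in D-gal replicates 1 to 3. The D-gal libraries were close together and all above the highest control library. P4ha1 rose by 33.6%, a log2 fold change of 0.42 with a standard error of 0.04 (adjusted p = 0.000154, edgeR). P4ha2, the alternative alpha subunit, lies at chr11:54100095-54131665 on the plus strand. It had 1583, 1605 and 1547 normalized counts among controls and 1322, 1224 and 1265 under D-gal. Again the groups did not overlap, but here every D-gal library was lower. On the log2 scale P4ha2 fell by 0.31, with a standard error of 0.04 (adjusted p = 0.00108, edgeR). No exon of another annotated gene overlaps the exons of P4ha1 or P4ha2.

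Within each library, P4ha2 had 42.3, 43.6 and 39.2 reads per 100 reads of P4ha1 among controls, and 26.5, 23.4 and 25.5 under D-gal. This ratio needs no scaling between libraries, and it was 0.602-fold of the control value. A two-sided exact permutation test gave p = 0.1, the smallest that 3 against 3 libraries allow, and 0.131 after Benjamini-Hochberg adjustment over the 17 ratios computed. P4ha3, the remaining alpha subunit, fell by 0.64 (adjusted p = 0.000217 from the edgeR test). Per kilobase of exon, P4ha1 made up 55.3% ± 1.22 (SD, n = 3) of the summed level of the alpha subunits among controls and 70.3% ± 1.61 under D-gal. P4ha2 made up 15.2% ± 0.504 and 11.6% ± 0.523, and P4ha3 29.6% ± 0.722 and 18.1% ± 1.32. The sum itself was 1668 ± 25.1 normalized counts per kilobase among controls and 1752 ± 43.3 under D-gal, so the make-up of the subunits differed more than their total. The shared beta subunit, P4hb (protein disulfide isomerase), had a log2 fold change of -0.02 and did not pass (adjusted p = 0.573 from the edgeR test).

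The promoters of P4ha1 and P4ha2 are shown because the genes differed in direction, and a stretch before Plod3 because it rose with P4ha1. The sequences come from RefSeq (GRCm38.p6), in which 5 of the 10 genes were matched: P4ha1, P4ha2, Plod1, Plod3 and Serpinh1. They are written 5′ to 3′ on the plus strand, the strand of all 3 genes. For P4ha1 (chr10:59323096-59323295) and P4ha2 (chr11:54100724-54100923) they are the 200 bases up to the base before the RefSeq start. The P4ha2 stretch lies within the gene as annotated, which begins at chr11:54100095. For Plod3 (chr5:136986952-136986981) they are 30 bases within the promoter, which also lies in an annotated exon of Znhit1 on the other strand. Capitals mark ACGTG or its reverse complement CACGT, a form of the core of the hypoxia response element. Other forms of the core were neither searched nor marked.
P4ha1: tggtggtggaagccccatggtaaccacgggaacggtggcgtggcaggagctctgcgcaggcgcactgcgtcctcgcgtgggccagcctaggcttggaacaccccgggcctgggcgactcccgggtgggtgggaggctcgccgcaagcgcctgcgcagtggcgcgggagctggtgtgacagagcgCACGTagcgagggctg
P4ha2: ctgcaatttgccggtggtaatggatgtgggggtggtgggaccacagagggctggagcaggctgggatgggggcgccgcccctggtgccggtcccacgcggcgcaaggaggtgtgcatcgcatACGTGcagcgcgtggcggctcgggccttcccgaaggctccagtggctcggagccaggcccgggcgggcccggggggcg
Plod3: gcttgaagtcattACGTGatgttcccttgg

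The promoter window searched runs from 250 bases before the start to 50 after it, on both strands. ACGTG was found in 4 of the 5 matched promoters (P4ha1, P4ha2, Plod3 and Serpinh1) and in 19.6% of all 32851 promoters of the RefSeq table. G and C made up 70.3% of the window in P4ha1 and in P4ha2, and 53.3% in Plod3. A share over promoters of like GC content was not computed. Counted from the start, the word began at -16 in P4ha1, at -78 and 10 in P4ha2, at -54 in Plod3 and at -171 in Serpinh1. It thus stood before genes that were higher (P4ha1, Plod3), lower (P4ha2) and not called (Serpinh1) in the D-gal group. The GC box GGGCGG was found in P4ha1, P4ha2, Plod1 and Serpinh1, and in 35.7% of all promoters. The heat shock words GAANNTTC and TTCNNGAA were found in P4ha2 and Plod1, and in 15.1% of all promoters. A match describes these letters and is no evidence of binding.

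Of the lysyl hydroxylases, Plod2 and Plod3 rose and Plod1 did not pass the test. Plod2 encodes the enzyme that hydroxylates lysines of the telopeptides, which gives crosslinks of the hydroxyallysine type, and lies at chr9:92542223-92608428 on the plus strand. It had 1150.3, 1141 and 1183 normalized counts among controls and 1647, 1640.2 and 1717 under D-gal. Within each group the libraries lay close together, with a coefficient of variation of 1.89% among controls and 2.54% under D-gal, and the gap between the groups was far wider. Plod2 rose by 44.1%, the most of the 10 genes (log2 fold change 0.53, standard error 0.04; adjusted p = 6.1e-05, edgeR). Gm38391 overlaps Plod2 on the other strand, and 5.87% of the transcript sequence of Plod2 occurs in other genes. The strand setting of the counting is not given in the sources used here, so reads of Gm38391 cannot be told from those of Plod2.

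Plod3 encodes the lysyl hydroxylase that also transfers glucose to hydroxylysine that carries galactose, and lies at chr5:136987019-136996648 on the plus strand. Its normalized count was 3009, 2747 and 2856 among controls and 3780 (replicate 1), 4363 (replicate 2) and 3717 (replicate 3) under D-gal. All D-gal libraries were higher than all control libraries, and D-gal replicate 2 was highest. The rise of 37.7% corresponds to a log2 fold change of 0.46 with a standard error of 0.07 (adjusted p = 0.00121, edgeR). Plod3 overlaps Znhit1 on the other strand and Mir702 on its own, and 12% of its transcript sequence occurs in other genes. The counts of Plod3 are thus less certain than those of P4ha1.

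Plod1, which hydroxylates lysines of the helical part of the chains, had 938, 1032 and 971 normalized counts among controls and 887, 832 and 928 under D-gal. All D-gal libraries were lower than all control libraries, though control replicate 1 and D-gal replicate 3 were nearly level. The log2 fold change of -0.15 (standard error 0.06) did not pass, with an adjusted p of 0.0882 from the edgeR test. Reads of Plod2 per 100 reads of Plod1 were 123, 111 and 122 among controls and 186, 197 and 185 under D-gal, 1.60-fold higher in the D-gal group (exact permutation p = 0.1, adjusted 0.131). Plod3 over Plod1 was likewise 1.53-fold higher (exact permutation p = 0.1, adjusted 0.131). Plod2 over Plod3 was 1.05-fold the control value, and there the libraries of the groups overlapped (exact permutation p = 0.5). Per kilobase of exon, the Plod family summed to 995 ± 22.8 (SD, n = 3) normalized counts among controls and 1315 ± 67.5 under D-gal. Plod3 held the greatest part of this sum, 63.8% ± 1.46 and 66.5% ± 2.57. The part of Plod1 was 14.6% ± 1.05 among controls and 9.95% ± 0.994 under D-gal.

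Serpinh1 encodes HSP47, the chaperone that binds procollagen, and lies at chr7:99345376-99353239 on the minus strand. It was the least reproducible of the 10 genes. Its normalized count was 12009, 11723 and 22209 in control replicates 1 to 3, and 10148.5, 18253 and 9795 in D-gal replicates 1 to 3. In each group 1 library, control replicate 3 and D-gal replicate 2, stood well above the other two, and the groups overlapped. The log2 fold change was -0.27 with a standard error of 0.31 (adjusted p = 0.545 from the edgeR test). It was 0.10 without control replicate 3 and -0.62 without D-gal replicate 2, so its sign and size moved with which of the high libraries was kept. Without both high libraries, which were left out after their Serpinh1 counts had been seen, it was -0.25 (standard error 0.04, adjusted p = 0.00849 from the edgeR test), a value that comes from a choice made on the same counts.

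The standard deviation of the log2 normalized count within groups was 0.51 for Serpinh1 and had a median of 0.08 over the 9878 genes that reached 100 counts in every library, among which Serpinh1 ranked 97. The other members tested here for spread lay between 0.03 (Bmp1) and 0.10 (Plod3), and Loxl2 was not compared because its counts were too low. No exon of another annotated gene overlaps the exons of Serpinh1, and 0% of the transcript sequence of Serpinh1 occurs in other genes. A search for genes that varied the same way was made after these values had been seen, over the 341 genes with a standard deviation of at least 0.3. Vps26a, a subunit of the retromer that sorts endosomal cargo, had 1032, 1048 and 2423 normalized counts among controls and 930, 2137 and 882 under D-gal. Itgav, the integrin alpha V chain, had 2169, 2186 and 4318 among controls and 2154, 4087 and 2191 under D-gal. Both were high in the same libraries as Serpinh1. Zfx, a zinc finger transcription factor, had 1919, 1897 and 465 among controls and 2304, 627 and 2546 under D-gal, low where Serpinh1 was high. What set these libraries apart was not tested.

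**Figure D2:**
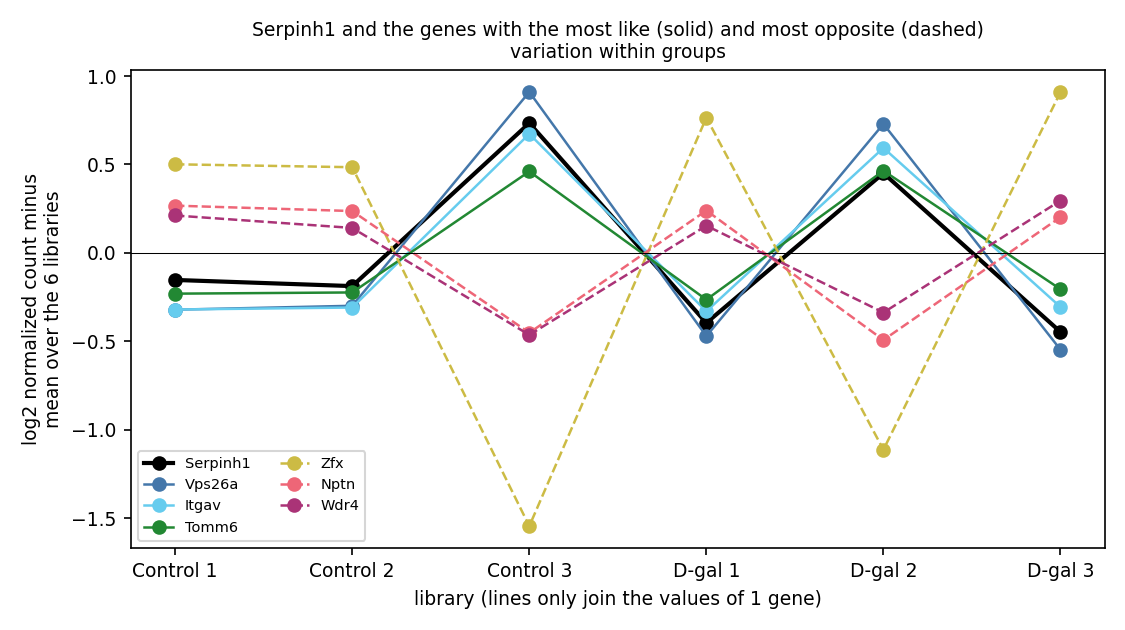
Log2 normalized count minus the gene's mean over the 6 libraries (vertical axis) for Serpinh1 (thick black line), the 3 genes with the most similar variation within groups (solid) and the 3 with the most opposite (dashed). Lines only join the values of 1 gene. Control replicate 3 and D-gal replicate 2 stand above 0 for Serpinh1, Vps26a, Itgav and Tomm6, and below 0 for Zfx, Nptn and Wdr4.

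Bmp1 encodes the proteinase that removes the C-propeptides of fibrillar procollagens, and lies at chr14:70474558-70520234 on the minus strand. It had 4520.2, 4685 and 4446 normalized counts among controls and 4104, 4118 and 4139 under D-gal. The D-gal libraries were nearly equal and all lay below the lowest control library. With a log2 fold change of -0.14 and a standard error of 0.03, Bmp1 fell by 9.46%, the smallest difference among the 7 genes called (adjusted p = 0.0104, edgeR). No exon of another annotated gene overlaps the exons of Bmp1.

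The lysyl oxidases were led by Lox, the best expressed of the 10 genes in the control group and the one that fell most. Lox, on chromosome 18, had 46741, 45377 and 45966 normalized counts among controls and 26798, 23033 and 24337 under D-gal. The control libraries were nearly equal, and even the highest D-gal library was far below them. Lox fell by 46.3%, a log2 difference of -0.90 with a standard error of 0.05, and ranked 94 by p-value in the table (adjusted p = 1.5e-05, edgeR). A gene on the other strand, AC161119.1, overlaps Lox.

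Loxl1, an oxidase known for its part in elastic fibres, lies at chr9:58287738-58313186 on the minus strand and fell less. Its normalized count was 5439.6, 5215 and 5047 among controls and 4288, 4118 and 4019.8 under D-gal. As for Lox, the groups did not overlap and the D-gal libraries were lower. Loxl1 fell by 20.9%, or -0.34 as log2 fold change (standard error 0.04; adjusted p = 0.000502, edgeR). Loxl1 had 11.6, 11.5 and 10.98 reads per 100 reads of Lox among controls and 16.0, 17.9 and 16.5 under D-gal, 1.48-fold higher in the D-gal group (exact permutation p = 0.1, adjusted 0.131).

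Loxl2, which acts on the collagen IV of basement membranes, was barely expressed, with 42, 55 and 31 reads among controls and 34, 33 and 28 under D-gal. After normalization these were 36.6, 44.9 and 31.3 against 38.2, 36.0 and 33.7, and the D-gal libraries lay within the range of the control libraries. The log2 fold change of -0.07 had a standard error of 0.21 (adjusted p = 0.824 from the edgeR test), so a difference of modest size was not detectable at this depth. Its sign turned when control replicate 2 was left out (0.08). The gene overlaps Mir6950 on its own strand and Gm27177 on the other, and 46.4% of its transcript sequence occurs in other genes. Even the few reads of Loxl2 are therefore uncertain.

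The other lysyl oxidases of the family moved apart. On the log2 scale Loxl3 fell by 0.74 (adjusted p = 1.4e-05 from the edgeR test), and Loxl4 rose by 0.76 (adjusted p = 0.000134). Per kilobase of exon, Lox held 78.1% ± 0.591 (SD, n = 3) of the summed level of the 5 genes among controls and 69.4% ± 1.55 under D-gal. The part of Loxl1 was 12.9% ± 0.302 and 16.9% ± 0.599, that of Loxl4 2.58% ± 0.198 and 7.27% ± 0.848, and that of Loxl2 under 0.1% in every library. The family sum was 12339 ± 201 normalized counts per kilobase among controls and 7452 ± 416 under D-gal.

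Compared per kilobase of exon, the 10 genes covered a range from abundant to nearly silent transcripts. Lox had 9634 ± 143 (SD, n = 3) normalized counts per kilobase among controls and ranked 42 among 13360 genes, and under D-gal it had 5174 ± 400 and ranked 91. Serpinh1 followed with 6269 ± 2445 and 5211 ± 1958 (ranks 75 and 88). Both genes were thus within the top 0.681% of genes ranked in either group. Loxl1 (1588 ± 59.6 and 1256 ± 41.2), P4ha1 (922 ± 34.3 and 1231 ± 35.4), Plod3 (635 ± 29.1 and 875 ± 78.7) and Bmp1 (513 ± 13.8 and 465 ± 1.98) came next. P4ha2 (253 ± 4.68 and 204 ± 7.89), Plod2 (215 ± 4.07 and 309 ± 7.88) and Plod1 (145 ± 7.09 and 130 ± 7.10) were lower, and Loxl2 was at 6.96 ± 1.27 and 6.66 ± 0.409, near the foot of the ranking. In the control group no neighbours in this order overlapped between libraries. In the D-gal group Plod2 stood above P4ha2, whereas Serpinh1 and Lox overlapped, as did Loxl1 and P4ha1, so neither pair could be ordered there. With the deposited FPKM values in place of these levels, 7 of the 10 genes kept their place in each group, and Bmp1 moved up to place 4.

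**Figure D3:**
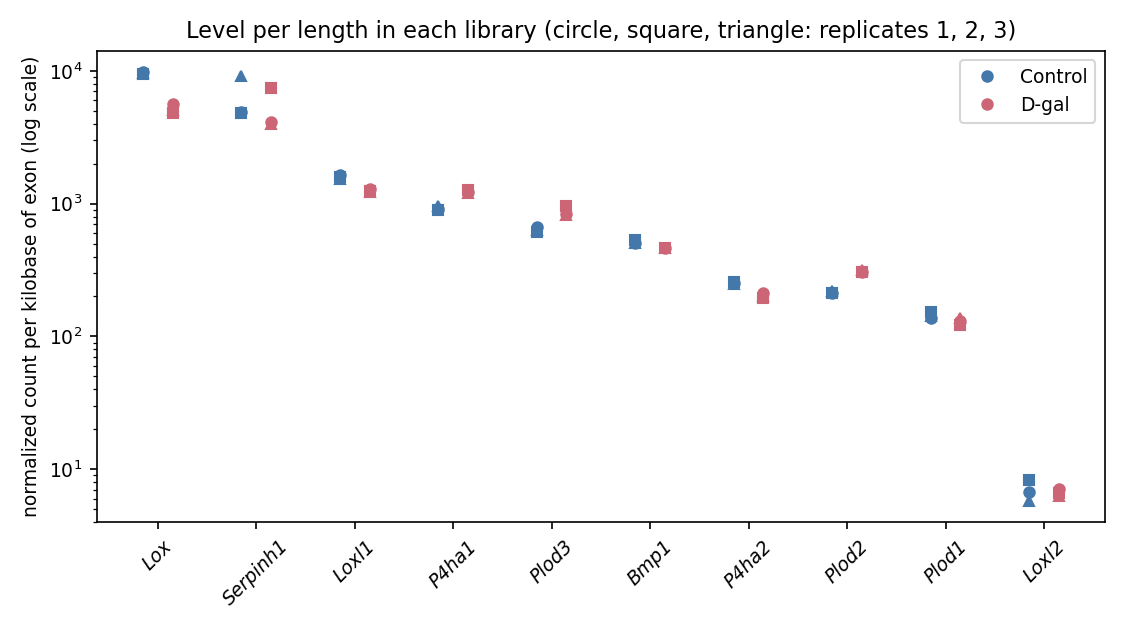
Normalized count per kilobase of exon (vertical axis, log scale) of the 10 genes in each control (blue) and D-gal (red) library, ordered by the control mean, with the replicates as circle, square and triangle. Lox and Serpinh1 stand highest, and Loxl2 lies at 6.96 and 6.66 on average, below the other 9 genes.

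The main substrates of these enzymes are the fibrillar collagens, and their transcripts also differed. All 11 fibrillar chains tested passed an adjusted p under 0.05, 5 higher and 6 lower, with a median log2 fold change of -0.09. Over all genes tested, 34.8% passed. Without control replicate 2, 7 of the 11 chains passed. The smallest p-values were those of Col3a1 (-1.18), Col1a2 (-0.97) and Col1a1 (-0.71), the chains of types III and I, all lower. Against this fall, each member was set in relation to the summed reads of Col1a1 and Col1a2, the chains of type I collagen, in the same library. These 10 ratios share 1 denominator and are not independent. Since Col1a1 was 0.612-fold and Col1a2 0.510-fold of control, a gene at an unchanged level would have a higher ratio in the D-gal group.

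Of the 10 genes, Lox had the ratio closest to its control value. There were 63.2, 60.3 and 60.1 reads of Lox per 100 reads of type I collagen among controls, and 61.8, 57.0 and 56.0 under D-gal. The groups overlapped, with a difference of -0.07 on the log2 scale (exact permutation p = 0.3, adjusted 0.319). Plod2, in contrast, had 1.56, 1.52 and 1.55 reads per 100 among controls and 3.80, 4.06 and 3.95 under D-gal. That was 2.56-fold higher, with no overlap (exact permutation p = 0.1, adjusted 0.131). Plod3 was 2.44-fold and P4ha1 2.37-fold higher relative to type I collagen, also without overlap.

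Bmp1, P4ha2 and Loxl1, which had fallen, and Plod1, which was not called, also had higher ratios to type I collagen, whose chains fell more. The ratio was 1.61-fold for Bmp1, 1.60-fold for Plod1, 1.43-fold for P4ha2 and 1.40-fold for Loxl1, each without overlap between the groups (exact permutation p = 0.1, adjusted 0.131). Loxl2 was 1.72-fold higher on few reads. For Serpinh1 the ratio was 1.48-fold, but its libraries overlapped (exact permutation p = 0.3, adjusted 0.319). Of the 17 ratios computed among the members and to type I collagen, 13 did not overlap between the groups, and no ratio could pass 0.05 in this design.

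**Figure D4:**
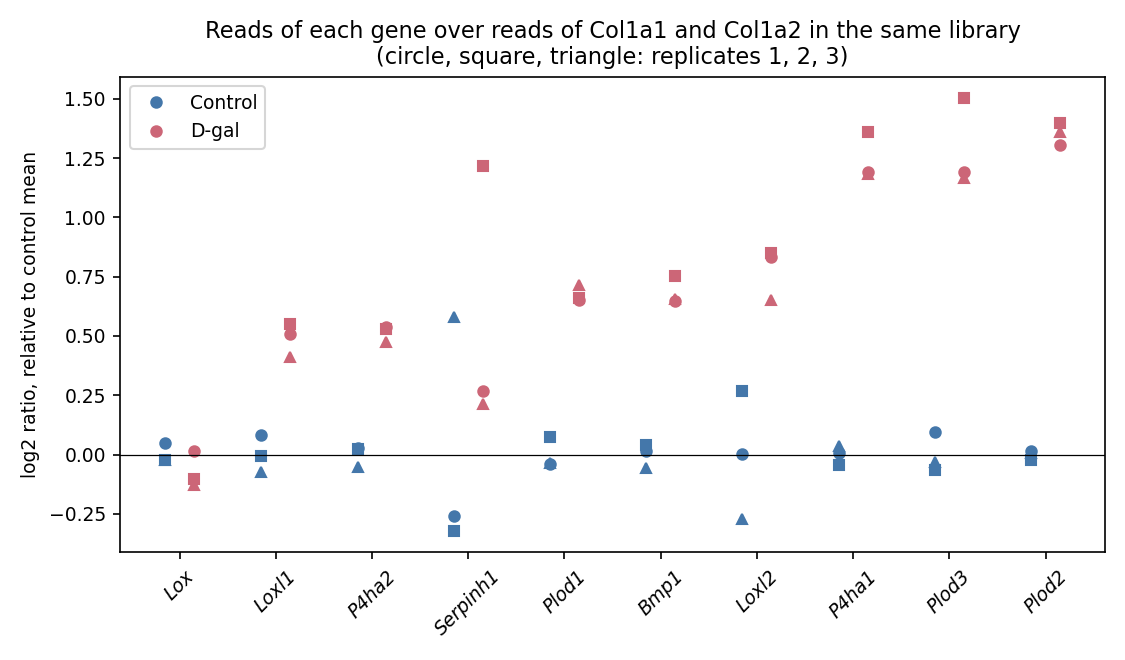
Log2 ratio of the reads of each of the 10 genes to the reads of Col1a1 and Col1a2 in the same library, minus the mean of the control libraries (vertical axis), with control libraries in blue and D-gal libraries in red. The D-gal libraries overlap the control libraries for Lox and Serpinh1, and stand highest for Plod2, Plod3 and P4ha1.

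Of the 32 other genes listed for collagen processing, 29 were tested. At an adjusted p under 0.05 in edgeR's test, 15 of the 29 passed (51.7%), 4 higher and 11 lower. Over all genes tested, 34.8% passed. The median log2 fold change of the 29 was -0.11. Beside the lysyl oxidases and P4ha3 already given, the prolyl 3-hydroxylase complex was divided. The enzyme P3h1 (0.27) and the related P3h4 (0.38) rose, whereas P3h2 (-0.25) and the partners of P3h1, Crtap (-0.27) and the isomerase Ppib (-0.18), fell. Crtap passed although its libraries overlapped between the groups. P3h4 is known as a partner of P3h3 and of the product of Plod1, and neither P3h3 (-0.25) nor Plod1 (-0.15) passed. Fkbp10, the isomerase that works with the product of Plod2, had a log2 fold change of 0.06 and did not pass, nor did the galactosyltransferase Colgalt1 (0.12).

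Among the proteinases that trim procollagen, the fall of Bmp1 stood beside those of its relative Tll1 (-1.32) and of the N-proteinases Adamts2 (-0.28), Adamts3 (-0.80) and Adamts14 (-0.63). Tll1 was the 1 gene of the list that also passed the log2 fold change of 1. It rested on few counts, 57, 54 and 39 reads among controls and 20, 16 and 11 under D-gal. Furin, which activates proproteins including that of BMP1, rose by 0.42. Pcolce, the enhancer of BMP1, had a log2 fold change of -0.09 and did not pass. Sec24d, a coat protein for procollagen export, fell by 0.50, and Fkbp9 by 0.14. The export factors Mia3, Sec23a, Sar1b and Klhl12, and the transcription factor Creb3l1 listed with them, lay between -0.11 and 0.12 and did not pass. Colgalt2, Tll2 and Mia2 had too few counts to be tested.

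**Figure D5:**
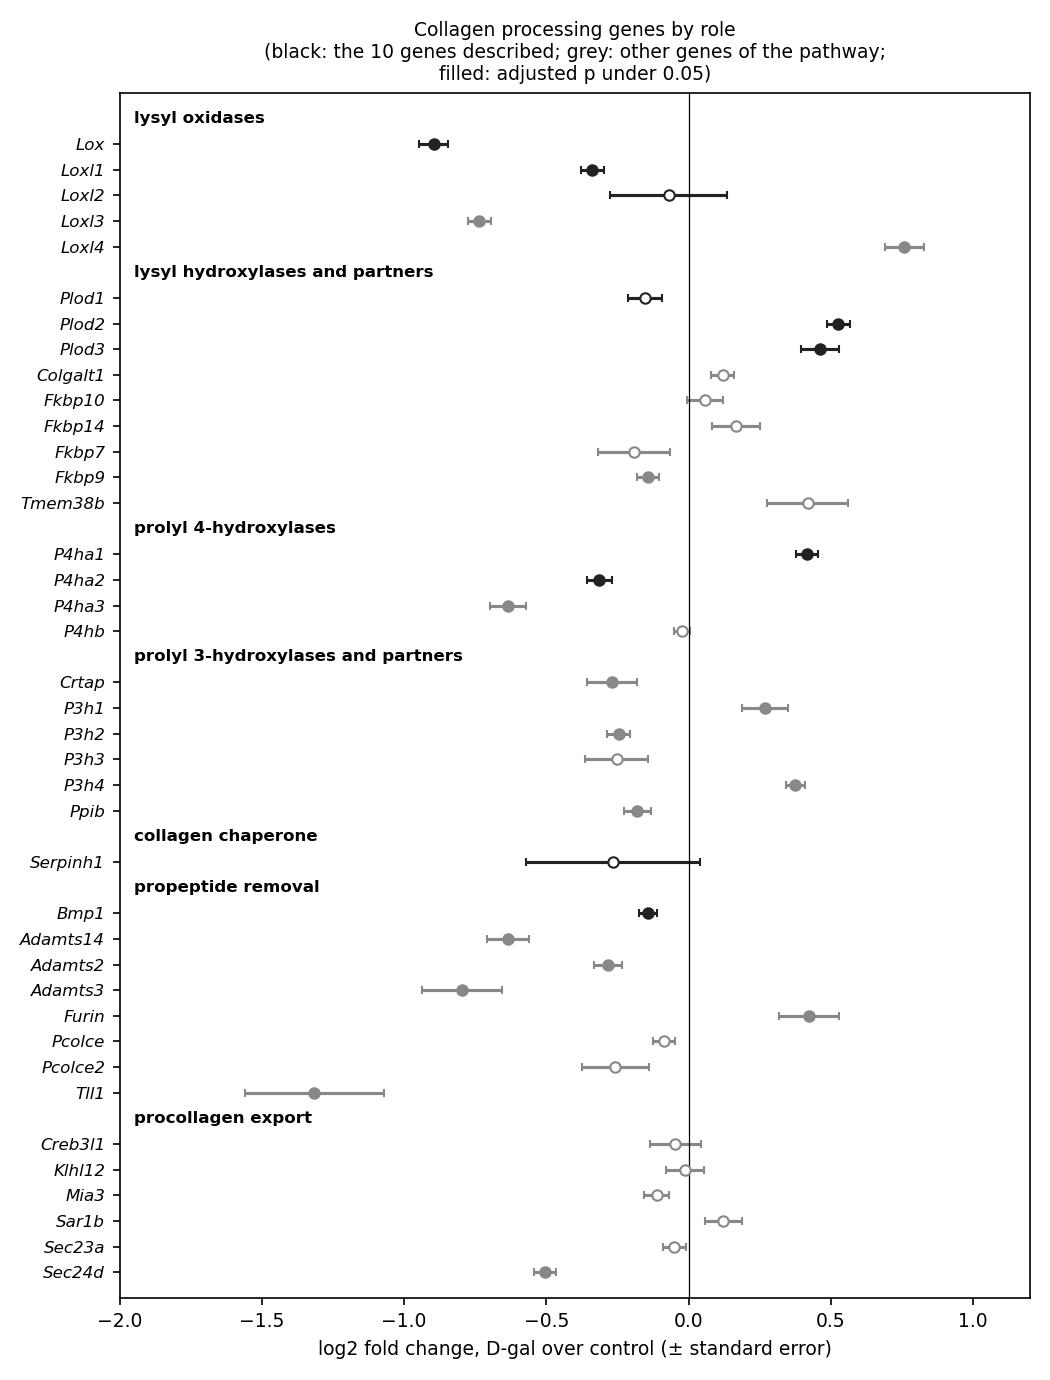
Log2 fold change of D-gal over control (horizontal axis) with its standard error, for the 10 genes described (black) and the 29 other collagen processing genes tested (grey), grouped by role. Filled points passed an adjusted p under 0.05. The lysyl oxidases and proteinases with filled points lie below 0 except Loxl4 (0.76) and Furin (0.42), and Plod2, Plod3 and P4ha1 lie above 0.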

How the data were processed

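RNA-seq of NOR-10 cells was analysed in 3 control and 3 D-gal libraries, grouped by the sample labels. Dose and duration came from the study's methods. The methods name a small RNA kit, whereas the labels name an RNA-seq kit. The authors ran FastQC on the reads and Trimmomatic on bases of low quality, and the submitters' processing notes name HISAT2 (version 2.0.4). The counting tool, its strand setting and the annotation release are not given in the sources used here. The deposited table holds raw counts per gene and library. It also holds FPKM values, which the authors scaled by gene length and library total.

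Counts were tested with edgeR (version 4.0.16, R version 4.3.3): the filter was filterByExpr, the scaling TMM and the test quasi-likelihood, with Benjamini-Hochberg adjustment over 13407 genes and no covariates. TMM factors lay between 0.986 and 1.015, and the biological coefficient of variation was 9.47%. A normalized count is a count scaled to the mean TMM-adjusted library size. Standard errors were derived from the log2 fold change and the F statistic. Replicates of a group always differed by more than sampling noise (chi-square divided by its degrees of freedom, 6.00 to 9.42), so every library was kept as a separate sample. Ratios of counts within a library were compared by a two-sided exact permutation test written in Python (version 3.11.15). Levels per kilobase use the union of annotated exons (GENCODE M21, GRCm38). Shared sequence is the percent of all 31-base words in a gene's transcripts that occur, on either strand, in transcripts of other genes. It thus includes words shared with genes that overlap on the other strand.

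The text gives all 10 genes, the other collagen processing genes with an adjusted p under 0.05, and from each further list the 3 with the smallest p. Other genes named were chosen after their values were seen. The members and lists were chosen with earlier results of these data known. Alternatives were RLE factors, DESeq2 (version 1.42.0), no filter, at least 10 counts in every library, a replicate block, limma (version 3.58.1) on log2(FPKM + 1), counts thinned to 13759108, and each library left out. The functions were tested on simulated data.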

Additional observations from a re-analysis of the deposited data

How the results depend on the processing

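Of 597 values recomputed, 563 were labelled the same. For fold changes this meant the same sign and call, and for ratios the same sign. For counts of genes it meant a value within a set factor of the main one, and for the order of levels no change. The 7 genes called remained called under every alternative run, including the replicate block (7 called, 3982 genes overall). Same-numbered libraries did not vary together (correlations -0.011, -0.0027 and 0.028), so the block pairs nothing in the design. Loxl2 (-0.07) turned sign in thinned counts (0.015), and with each replicate left out ranged from -0.18 to 0.082 (without control replicate 2). Serpinh1 (-0.27) ranged from -0.62 (without D-gal replicate 2) to 0.10 (without control replicate 3). Leaving out both libraries high in Serpinh1, an alternative added after seeing the data, gave 2863 genes (1328 higher, 1535 lower), 7 fibrillar collagens, 2 chaperones and Serpinh1 at -0.25. With each replicate left out, fibrillar collagens called ranged from 7 (without control replicate 2) to 9, chaperones from 3 (without control replicate 3) to 6 and copper genes from 1 (without D-gal replicate 1 or 2) to 2. Copper genes were 5 under the block and 1 in thinned counts. With the log2 fold change of 1, the 1 copper gene (Atp7b) was lost (0) with DESeq2, no filter, at least 10 counts, limma, thinned counts and most replicates left out (0 to 1). At least 10 counts left 211 higher genes. Limma on log2(FPKM + 1), which compresses low values, left 120 genes (72 higher, 48 lower). It left 0 other processing genes (Tll1 was lost), 1 fibrillar collagen and 1 TGF-beta gene. The causes were not tested. With deposited FPKM, 7 places in the order of levels held in each group. Depth limits Loxl2 most.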

Other observations

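Further lists bearing on collagen enzymes were described by counts alone, with no test of a list. Over all genes tested, 34.8% passed an adjusted p under 0.05, 16.9% higher and 17.8% lower. Of the 19 hypoxia-inducible genes tested, 9 were higher and 2 lower in the D-gal group at an adjusted p under 0.05 in edgeR's test, with a median log2 fold change of 0.19. Among the 10 collagen enzymes, P4ha1, Plod2, P4ha2 and Lox are themselves known as hypoxia-inducible, and of these P4ha1 (0.42) and Plod2 (0.53) rose while P4ha2 (-0.31) and Lox (-0.90) fell. The smallest p-values of the list were those of Adm (1.15), the vasoactive peptide adrenomedullin, Ndrg1 (-1.37), a stress response gene, and Slc2a1 (0.43), a glucose transporter. Adm had 878, 897 and 831 normalized counts among controls and 1897, 1992 and 1898 under D-gal, whereas Ndrg1 had 766, 724 and 730.1 among controls and 292, 249 and 317 under D-gal. Among 18 TGF-beta-inducible genes, 8 were higher and 5 lower, with a median of 0.23, and Tgfbi (-2.64), Junb (-0.64) and Id1 (-0.40) had the smallest p-values, all lower as Lox was. Oxygen and TGF-beta signalling were not measured.

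Of the 16 general chaperones of the endoplasmic reticulum, 1 was higher and 4 were lower, with a median log2 fold change of -0.03. That was 31.25% called, against 34.8% of all genes tested. Without control replicate 3, 3 of the 16 passed. The smallest p-values were those of Ero1l (0.33), an oxidase of protein disulfide isomerases, Hsp90b1 (-0.33) and Pdia6 (-0.18). For 7 genes for the supply of copper, the cofactor of lysyl oxidases, the median was 0.38. Of these 7, 2 were higher and 1 was lower (42.9%, against 34.8% of all genes tested). These were the copper chaperone Ccs (0.39), the transporter Slc31a1 (-0.18) and the pump Atp7b (1.705). Atp7b rested on few counts, with 1.74 to 10.1 normalized counts among controls and 13.5 to 18.1 under D-gal. Without D-gal replicate 1 or 2, 1 of the 7 genes passed. Atp7a, the pump that loads lysyl oxidases with copper, had a log2 fold change of -0.17 and did not pass.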
